A study of Homo sapiens with 9 samples.

Results

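Long noncoding RNA (lncRNA) genes were followed in HepG2 cells, an established human liver cancer line, after knockdown of TRIB3. The members were chosen by name and by measured level. A gene symbol had to start with LINC and a number, be SNHG and a number, start with MIR and end in HG, end in -AS and a digit, or be MALAT1, NEAT1, GAS5, HULC, PVT1, CYTOR or DANCR, and 3 or more of the 9 libraries had to reach an FPKM of 1. FPKM is the number of sequenced fragments per kilobase of gene, scaled to the size of the library, so it can be compared between genes per unit of length. Of 24204 gene symbols, 2070 carried such a name and 323 of these passed the level, while 1747 did not. The 323 members were 188 genes named as antisense (-AS), 97 named as intergenic (LINC), 23 hosts of small nucleolar RNAs (22 SNHG genes and GAS5), 9 microRNA hosts (MIR-HG) and 6 other named lncRNAs. These classes follow the symbols alone, so a host of small nucleolar RNAs under another name is not in the host class. GENCODE 44 held 314 of the members and typed 307 of them as lncRNA.

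TRIB3 encodes a pseudokinase induced by amino acid shortage, and the study asked what its loss does to transcription in these tumor cells. The 3 groups of 3 libraries each carried a lentiviral short hairpin RNA, either a control hairpin (shCtrl) or a hairpin against TRIB3 (shTRIB3-1 or shTRIB3-2), and all cells had 48 h of infection and then 48 h of puromycin selection. The labels give high-glucose medium with serum, whereas the study's methods describe RNA-seq of glutamine-deprived cells. The study's discussion places perturbed repair genes after TRIB3 loss in cells not deprived of glutamine, without naming these libraries. The medium at harvest is therefore not certain. Nothing states that the 3 libraries of a group came from separate cultures, and the p-values below then measure the spread between these libraries only.

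The hairpins are shown because every comparison rests on them. Each target was taken from the study's oligonucleotide list and matched to GRCh38, where both lie on the plus strand within the coding sequence of TRIB3 (GENCODE 44). The shTRIB3-1 target is in exon 2 at chr20:388072-388092 and the shTRIB3-2 target is in exon 3 at chr20:391473-391493.
shTRIB3-1 target: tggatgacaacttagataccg
shTRIB3-2 target: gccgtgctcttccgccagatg
In GENCODE 44 transcripts, which covered 314 of the 323 members, the longest run that either target shared with a member was 11 of its 21 bases. Shorter matches were not examined, so effects of the hairpins on RNAs other than TRIB3 were not tested. TRIB3 itself stood at 67.9, 65.8 and 66.6 FPKM in shCtrl, 34.1, 32.7 and 34.0 FPKM in shTRIB3-1 and 20.6, 20.7 and 20.4 FPKM in shTRIB3-2. The hairpins therefore left different amounts of TRIB3 RNA, and the direct test of shTRIB3-2 against shTRIB3-1 gave a log2 fold change of -0.71 (limma adjusted p = 9.5e-09).

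LncRNAs are transcripts without a long open reading frame. Some build nuclear bodies, as NEAT1 does for paraspeckles, some are carriers from whose introns small RNAs are cut, and many start beside or across from a coding gene. snoRNA host genes are spliced after transcription to release small nucleolar RNAs, which guide the modification of ribosomal RNA, and many of the spliced host transcripts are short-lived because translation sends them to nonsense-mediated decay. The libraries were made from total RNA of HepG2 cells, and all 9 hepatocyte markers listed, ALB and AFP among them, were detected. None of the 4 endothelial and 6 fibroblast markers reached 1 FPKM in any library. Among 5 leukocyte markers PTPRC and CD3E were at or near 0, and nearly all of the list's sum came from LYZ. That sum was 1057 to 1178 FPKM in shCtrl, 534 to 561 FPKM in shTRIB3-1 and 613 to 652 FPKM in shTRIB3-2. Its part in the results was not tested. In bulk RNA a smaller number of cells expressing a gene and less RNA per cell cannot be told apart.

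All changes below are log2 fold changes of FPKM + 0.1, given with the standard error (SE), from 1 limma fit to the 9 libraries, with p-values adjusted by Benjamini-Hochberg over 11265 tested genes. "Rose" and "fell" mean an adjusted p under 0.05, and "called" means that the absolute log2 fold change also exceeded 1. Both TRIB3 hairpins were set against the same 3 shCtrl libraries. With shTRIB3-1, 28 members were called higher and 30 lower, which is 8.67% and 9.29% of members, beside 5.39% and 6.1% of all tested genes. With shTRIB3-2, 34 members were called higher and 18 lower, 10.5% and 5.57%, beside 6.06% and 6.27% of all tested genes. The balance with shTRIB3-1 depended on the settings, with 31 higher and 23 lower after median centring and 12 and 5 with a pseudocount of 1, and with shTRIB3-2 these were 37 and 17 and then 15 and 4.

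By the adjusted p alone the counts were larger. With shTRIB3-1, 80 members rose and 136 fell, 24.8% and 42.1%, beside 32.9% and 41.5% of all tested genes. With shTRIB3-2, 94 rose and 118 fell, 29.1% and 36.5%, beside 35.4% and 40.5%. The median log2 fold change of the members was -0.16 with shTRIB3-1 and -0.06 with shTRIB3-2, and that of all tested genes was -0.06 and -0.03.

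In the same direction with both hairpins, 23 members were called higher and 14 lower, 7.12% and 4.33%, beside 4.32% and 4.74% of all tested genes. By the adjusted p alone 69 rose and 100 fell with both, 21.4% and 31.0%, beside 28.1% and 34.3%. No member was called in opposite directions. The threshold on level shaped these counts. Of the 23 called higher with both, 15 had no shCtrl library at 1 FPKM or above, and of the 14 called lower with both, 9 reached 1 FPKM in shCtrl libraries only, so these genes had passed the level only through the group in which they were high. In all, 205 of the 323 members were at 1 FPKM or above in all 9 libraries, 31 had no shCtrl library at that level and 13 had only shCtrl libraries there. At the threshold, the third-highest FPKM of RAB4A-AS1 was 1.01, of DICER1-AS1 1.01 and of LINC01061 1.01, just inside, and that of LINC00641 was 0.997, of PRKCQ-AS1 0.995 and of LINC01521 0.991, just outside. Restricted to members with at least 1 library of every group at 1 FPKM or above, a choice made after seeing the data, 24 of 258 members were called with shTRIB3-1 (9.30%), 18 with shTRIB3-2 (6.98%) and 12 with both (4.65%), beside 8.24%, 8.95% and 6.16% of the 10527 tested genes held to the same level. The difference between members and other genes was not tested.

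**Figure D1:**
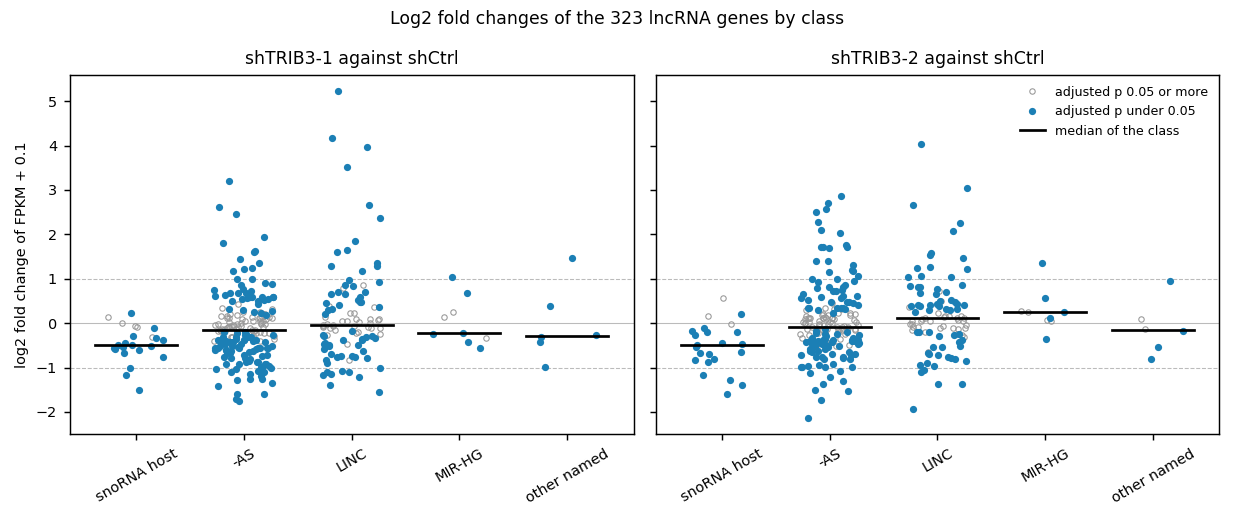
Log2 fold changes of FPKM + 0.1 of the 323 lncRNA genes (y axis) by name class (x axis), with shTRIB3-1 on the left and shTRIB3-2 on the right. Filled points have an adjusted p under 0.05, bars are class medians and dashed lines mark a log2 fold change of 1 and -1. The snoRNA hosts lie mostly below 0, with medians of -0.50 and -0.48, and the LINC and -AS classes spread widely to both sides.

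Among the 188 -AS members, 44 rose and 78 fell with shTRIB3-1 and 50 rose and 69 fell with shTRIB3-2, and 38 rose and 59 fell with both. Among the 97 LINC members, 31 rose and 33 fell with shTRIB3-1 and 38 rose and 26 fell with shTRIB3-2, and 28 rose and 21 fell with both. Of all tested genes, 32.9% rose and 41.5% fell with shTRIB3-1, 35.4% and 40.5% with shTRIB3-2, and 28.1% and 34.3% with both. The difference of either class from other genes was not tested. The LINC members summed to 417 ± 6.73 FPKM (SD, n = 3) in shCtrl, 467 ± 7.91 in shTRIB3-1 and 519 ± 10.1 in shTRIB3-2. Their share of the fragments was 0.0980% ± 0.000726 in shCtrl, 0.0957% ± 0.000949 in shTRIB3-1 and 0.107% ± 0.00391 in shTRIB3-2. With shTRIB3-1 the summed FPKM was thus higher than in shCtrl and the fragment share lower. All 323 members together took 0.465% ± 0.00586, 0.400% ± 0.00443 and 0.431% ± 0.00422 of the fragments.

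The snoRNA hosts had the largest summed FPKM of the classes in shCtrl, and most of them moved one way. With shTRIB3-1, 17 of the 23 fell, 1 rose and 5 did not pass, beside 41.5% of all tested genes that fell. With shTRIB3-2, 19 fell, 1 rose and 3 did not pass, beside 40.5%, and 16 fell with both hairpins, beside 34.3%. Their median log2 fold change was -0.50 with shTRIB3-1 and -0.48 with shTRIB3-2. Their summed level was 860 ± 55.8 FPKM (SD, n = 3) in shCtrl, 643 ± 21.8 in shTRIB3-1 and 564 ± 16.2 in shTRIB3-2. Their share of all fragments went from 0.118% in shCtrl to 0.0911% and 0.0848%. These statements describe the class, whose difference from other genes was not tested, and 4 further symbols of the class did not reach the FPKM threshold. Across the scaling alternatives between 15 and 19 hosts fell with shTRIB3-1, and between 16 and 19 with shTRIB3-2.

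SNHG5, which carries box C/D snoRNAs of the U50 family (chr6:85677007-85678733, minus strand), had the highest mean FPKM of the members in each of the 3 groups. Its FPKM was 196, 232 and 233 in shCtrl, 150, 152 and 163 in shTRIB3-1 and 90.1, 90.6 and 88.3 in shTRIB3-2. The 3 groups did not overlap, and the order followed that of TRIB3. The share of all tested genes with such an order was not counted. The log2 fold change was -0.50 ± 0.06 (SE, adjusted p = 7.4e-06) with shTRIB3-1 and -1.29 ± 0.06 (adjusted p = 1.2e-09) with shTRIB3-2, and the difference between the hairpins was itself past the threshold at -0.79 ± 0.06 (adjusted p = 8.5e-07).

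SNHG19 (chr16:2154782-2155358, minus strand) had the largest fall of the class. It stood at 33.3, 41.4 and 35.9 FPKM in shCtrl, at 12.6, 14.8 and 11.4 in shTRIB3-1 and at 12.1, 13.1 and 11.1 in shTRIB3-2. Both knockdown groups lay well below every control library and overlapped each other. Relative to shCtrl the log2 values were -1.51 ± 0.10 and -1.60 ± 0.10 (adjusted p = 3.3e-08 and 1.6e-08).

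SNHG26 and SNHG4 were the other hosts called lower with both hairpins. SNHG26 went from 4.07, 2.71 and 3.40 FPKM in shCtrl to 1.61, 1.49 and 1.21 with shTRIB3-1 and 1.34, 1.36 and 0.971 with shTRIB3-2. SNHG4 went from 5.12, 5.18 and 5.40 FPKM to 1.98, 2.45 and 3.42 and to 1.99, 2.25 and 2.62. SNHG4 fell by 1.01 on the log2 scale with shTRIB3-1, which drops to 0.83 without replicate 1 of shTRIB3-1 and to 0.98 without shCtrl replicate 3 or shTRIB3-1 replicate 2, below the fold threshold.

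Several other abundant hosts fell by less than 1 on the log2 scale. SNHG1, the U22 host gene whose spliced RNA was the classic example of a transcript that serves its introns, went from 51.3, 49.9 and 52.3 FPKM to 28.5, 31.0 and 31.4 with shTRIB3-1 and 28.2, 30.3 and 29.3 with shTRIB3-2 (log2 fold changes -0.75 ± 0.04 and -0.81 ± 0.04, adjusted p = 9.6e-09 and 4.3e-09). Its control libraries did not overlap those of either knockdown group, and the same held for SNHG3, SNHG32, SNHG8 and SNHG16. How often this holds among all tested genes was not counted, and 32.9% of those rose and 41.5% fell with shTRIB3-1. SNHG3 fell by 0.68 and 0.66 on the log2 scale, SNHG32 by 0.57 and 0.47, SNHG8 by 0.54 and 0.45, and SNHG16 by 0.32 and 0.48. SNHG29, the host with the second-highest level, went from 95.7, 103 and 103 FPKM to 88.6, 94.4 and 95.2 and to 84.2, 92.8 and 84.8. With SNHG10, SNHG12, SNHG14 and SNHG30 it also fell with both hairpins, by between 0.12 and 0.84.

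GAS5, a host of many box C/D snoRNAs that is also known as a growth arrest transcript, did not follow the class closely. It stood at 78.5, 91.0 and 90.4 FPKM in shCtrl, 79.1, 86.5 and 79.9 in shTRIB3-1 and 76.0, 81.1 and 74.0 in shTRIB3-2, and the groups overlapped. The log2 fold change was -0.08 ± 0.06 (adjusted p = 0.22) with shTRIB3-1 and -0.17 ± 0.06 (adjusted p = 0.019) with shTRIB3-2. The call with shTRIB3-2 was lost without shCtrl replicate 2 (adjusted p = 0.0802) or 3 (0.0753), and without shTRIB3-2 replicate 1 (0.0538) or 3 (0.0764), and the value with shTRIB3-1 passed without shCtrl replicate 1 (adjusted p = 0.0123). SNHG6 was level with shTRIB3-1, at a log2 fold change of 0.00 ± 0.05, and at -0.12 ± 0.05 (adjusted p = 0.0497) with shTRIB3-2, a call that was lost without any single library other than shCtrl replicate 1 and shTRIB3-2 replicate 2 (adjusted p from 0.0577 to 0.233). Annotated antisense exons cover 58.9% of SNHG6. SNHG29 lost its call with shTRIB3-1 without shCtrl replicate 2 or 3 or shTRIB3-1 replicate 1 (adjusted p 0.116, 0.106 and 0.143).

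SNHG17 and SNHG20 were the only hosts past the threshold upwards, each with 1 hairpin. SNHG17 had log2 fold changes of 0.22 ± 0.07 (adjusted p = 0.017) and 0.17 ± 0.07 (adjusted p = 0.055), and SNHG20 of 0.13 ± 0.07 (adjusted p = 0.13) and 0.20 ± 0.07 (adjusted p = 0.025). Single libraries decided these weak values. The first was lost without shCtrl replicate 1 (adjusted p = 0.0744), and the SNHG20 call was lost without shCtrl replicate 1 or 2 or shTRIB3-2 replicate 1 or 3, with adjusted p from 0.0525 to 0.099. The SNHG17 value with shTRIB3-2 passed without shCtrl replicate 2 (adjusted p = 0.0226) or shTRIB3-2 replicate 2 (0.0193). SNHG25, with 13.1, 21.3 and 31.4 FPKM in shCtrl, fell with both hairpins in the full fit (-0.60 and -0.70). Without shCtrl replicate 3, its highest library, the values were -0.30 and -0.40 with adjusted p of 0.198 and 0.0879. The call with shTRIB3-1 was also lost without shCtrl replicate 2, shTRIB3-1 replicate 1 or 2, or shTRIB3-2 replicate 1 (adjusted p from 0.053 to 0.138), and that with shTRIB3-2 without its replicate 2 (0.0987).

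SNHG7, SNHG11 and SNHG21 differed between the hairpins in the direct test. SNHG7 fell by 0.50 and 0.21 on the log2 scale (difference 0.29 ± 0.08, adjusted p = 0.013). Its smaller fall was lost without shCtrl replicate 3 or shTRIB3-2 replicate 1 or 2 (adjusted p 0.186, 0.0695 and 0.162), and the difference without shTRIB3-2 replicate 3 (0.0575). SNHG11 fell by 0.39 on the log2 scale with shTRIB3-1 and stood at -0.01 with shTRIB3-2 (difference 0.38 ± 0.08, adjusted p = 0.0025). SNHG21 had -0.32 ± 0.14 and -0.88 ± 0.14 (difference -0.57 ± 0.14, adjusted p = 0.006), and another annotated gene on its strand covers 72.9% of its exon sequence. Its value with shTRIB3-1 passed without shCtrl replicate 1, shTRIB3-1 replicate 3 or shTRIB3-2 replicate 1 (adjusted p 0.00508, 0.0491 and 0.045). SNHG9 had 5 to 26 fragments per library and 1.44, 0.591 and 2.99 FPKM in shCtrl, and neither comparison passed in the full fit. Without shCtrl replicate 3 its value with shTRIB3-2 was 1.11 (adjusted p = 0.027) in place of 0.58, so a single library decided it.

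**Figure D2:**
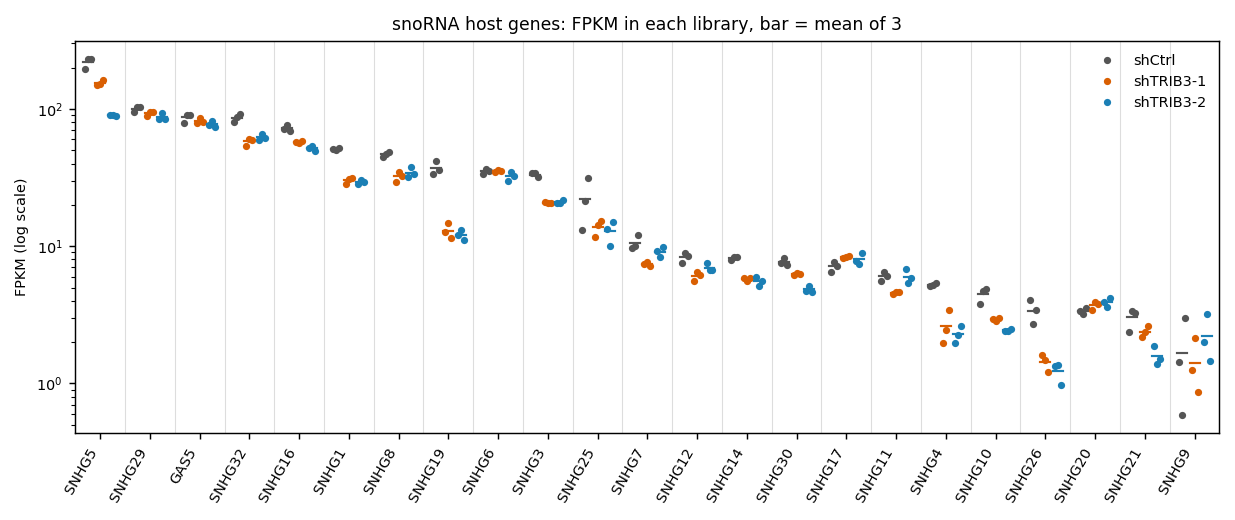
FPKM on a log axis (y) of the 23 snoRNA host genes (x, ordered by their shCtrl mean) in each library, with a bar at the mean of the 3 libraries of a group. SNHG5 falls from group to group, from 196 to 233 FPKM in shCtrl to about 90 in shTRIB3-2, SNHG19 falls to the same level in both knockdown groups, and GAS5, SNHG6, SNHG17 and SNHG20 change little.

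The 5′ ends of the hosts were compared because many genes of the translation machinery, and several snoRNA hosts with them, start with a C followed by a run of pyrimidines. This feature was looked for after the sequences and values had been seen. Each line gives 50 bases around the start annotated by RefSeq in GRCh38.p14, 25 before it and 25 from it, with capitals for the unbroken run of C and T that begins at the start.
SNHG5 (minus, chr6:85678709-85678758): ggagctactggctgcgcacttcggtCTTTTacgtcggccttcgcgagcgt
SNHG19 (minus, chr16:2155334-2155383): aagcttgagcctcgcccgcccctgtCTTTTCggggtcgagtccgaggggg
SNHG32 (plus, chr6:31834891-31834940): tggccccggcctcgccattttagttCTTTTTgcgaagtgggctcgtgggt
SNHG12 (minus, chr1:28581849-28581898): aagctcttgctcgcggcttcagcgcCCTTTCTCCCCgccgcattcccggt
SNHG4 (plus, chr5:139274076-139274125): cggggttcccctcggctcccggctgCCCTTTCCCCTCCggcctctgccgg
SNHG1 (minus, chr11:62855861-62855910): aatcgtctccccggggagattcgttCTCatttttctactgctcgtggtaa
SNHG3 (plus, chr1:28505918-28505967): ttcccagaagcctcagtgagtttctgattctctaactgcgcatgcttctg
A C at the start followed by 4 bases that are each C or T was present in 5 of the 20 hosts with a RefSeq promoter window, 25% of them, against 4.04% of all 27305 windows and 5.60% of the 9088 windows of tested genes. Of the 254 members with a window, these 5 hosts included, 9 held it (3.54%). The 5 that hold it are the first 5 printed, and SNHG1 and SNHG3, which fell as far as SNHG32 or further, do not hold it at this annotated start. A looser measure, a run of 8 or more C or T within 25 bases of the start, was met in 7 of the 20 hosts (35%). Beside this stood 25.6% of member windows, 20.5% of all windows and 18.7% of those of tested genes. The annotated start of a gene need not be the one used in HepG2 cells.

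A G-quadruplex is a four-stranded DNA fold, and the study dealt with such folds at promoters, so the pattern of 4 runs of GGG separated by 1 to 7 bases was searched on both strands from 250 bases before to 50 after the RefSeq start. It was present in 70 of 254 member windows (27.6%), in 2 of the 20 host windows (10%), in 24.1% of all windows and in 33.7% of the 9088 windows of tested genes. The 2 hosts were SNHG4 and SNHG26, each called lower with both hairpins. SNHG19, also called lower with both, and SNHG5 and SNHG1, which fell with both, do not hold it. Whether the pattern bears on any fall was not tested. The E-box CACGTG was present in 8.27% of member windows, 7.43% of all windows and 10.3% of those of tested genes. The ATF4-type element TGATGNAAT was present in 0.394%, 1.02% and 0.429%, and the E2F-type element TTTCCCGC in 1.57%, 1.66% and 2.73%. No overlap between these motifs was removed, and a match is a description of the letters only.

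Proteins that work on these RNAs were taken from fixed lists. Of 8 core proteins of snoRNA particles, 2 rose and 5 fell with shTRIB3-1, and 1 rose and 6 fell with shTRIB3-2, while 32.9% of all tested genes rose and 41.5% fell with the first hairpin and 35.4% and 40.5% with the second. FBL, the methyltransferase of the box C/D particle, went from 78.1, 80.7 and 78.4 FPKM to 54.7, 52.6 and 52.4 and to 37.8, 33.8 and 38.0 (log2 fold changes -0.57 and -1.11). NOP10, of the box H/ACA particle, rose by 0.50 and 0.38. Of 10 factors of nonsense-mediated decay, 2 rose and 5 fell with shTRIB3-1 and 1 rose and 5 fell with shTRIB3-2, which is near those shares for the falls. UPF1, the central helicase of that pathway, went from 20.2, 20.7 and 21.3 FPKM to 13.5, 12.8 and 13.9 and to 13.2, 11.3 and 13.3 (log2 fold changes -0.63 and -0.72). Whether these changes bear on the hosts was not tested.

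NEAT1, the scaffold of paraspeckles (chr11:65422798-65445540, plus strand), fell with both hairpins and more with shTRIB3-1. Its FPKM was 19.7, 20.1 and 21.5 in shCtrl, 10.3, 9.61 and 10.9 in shTRIB3-1 and 13.8, 14.2 and 14.4 in shTRIB3-2, and no 2 groups overlapped. The log2 fold changes were -0.99 ± 0.05 and -0.53 ± 0.05 (adjusted p = 4.0e-09 and 1.1e-06), and the difference between the hairpins was 0.46 ± 0.05 (adjusted p = 2.0e-05). Its order across groups was thus not that of TRIB3. Each gene has 1 FPKM value per library, so the different transcripts of NEAT1 were not told apart. The value with shTRIB3-1 lies at the fold threshold and is past it, at -1.01 and -1.03, without shCtrl replicate 1 or without shTRIB3-1 replicate 3. Of 10 paraspeckle proteins, 8 fell and none rose with shTRIB3-1, and 10 of 10 fell with shTRIB3-2, beside 41.5% and 40.5% of all tested genes. NONO went from 159, 154 and 149 FPKM to 101, 103 and 104 and to 96.6, 99.6 and 96.1 (log2 fold changes -0.59 and -0.66), and TARDBP, called lower with shTRIB3-1, had -1.12 and -0.97. RBM14 stood at 0.11 with shTRIB3-1 and -0.56 with shTRIB3-2.

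MALAT1, which collects in nuclear speckles (chr11:65497738-65506516, plus strand), stood at 13.5, 16.5 and 12.1 FPKM in shCtrl, 15.4, 19.6 and 19.7 in shTRIB3-1 and 15.8, 15.7 and 13.0 in shTRIB3-2, with overlapping groups. The log2 fold change was 0.38 ± 0.12 (adjusted p = 0.012) with shTRIB3-1 and 0.09 ± 0.12 (adjusted p = 0.52) with shTRIB3-2. The first was lost without shCtrl replicate 3 (adjusted p = 0.0555) or shTRIB3-1 replicate 3 (0.05003). The annotated antisense gene TALAM1 covers 83.7% of its exon bases, and whether counting used the strand is not stated, so reads of the 2 genes may be mixed. Of 10 nuclear speckle proteins, 10 fell with shTRIB3-1 and 8 with shTRIB3-2, beside the same 41.5% and 40.5%, and none rose.

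CYTOR, a cytoplasmic lncRNA described in several carcinomas (chr2:87455427-87521518, plus strand), rose with both hairpins. It stood at 9.62, 9.23 and 8.66 FPKM in shCtrl, 24.1, 27.6 and 25.2 in shTRIB3-1 and 18.1, 17.4 and 17.9 in shTRIB3-2. The 3 groups did not overlap. The log2 fold changes were 1.47 ± 0.05 and 0.95 ± 0.05 (adjusted p = 2.2e-10 and 8.4e-09), and shTRIB3-2 stood 0.52 below shTRIB3-1 on that scale (log2 fold change -0.52 ± 0.05, adjusted p = 1.1e-05). CYTOR has a near-identical copy in MIR4435-2HG on the same chromosome, and the counting could split reads between them. MIR4435-2HG moved the same way, from 7.06, 7 and 7.49 FPKM to 11.0, 12.6 and 11.4 and to 8.33, 8.66 and 8.91.

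HULC, named for its high level in liver cancer, fell with both hairpins. It went from 21.3, 16.8 and 16.4 FPKM to 13.3, 12.8 and 14.0 with shTRIB3-1 and 12.2, 10.0 and 9.01 with shTRIB3-2 (log2 fold changes -0.43 ± 0.11 and -0.80 ± 0.11, adjusted p = 0.0032 and 2.7e-05). DANCR, a cytoplasmic RNA linked to keeping progenitor cells undifferentiated, went from 57.3, 55.9 and 51.5 FPKM to 45.4, 44.7 and 43.1 and to 47.5, 51.3 and 46.6 (-0.30 ± 0.05 and -0.18 ± 0.05, adjusted p = 7.5e-05 and 0.0039). PVT1, the neighbour of MYC, had -0.26 ± 0.06 (adjusted p = 0.0017) and -0.13 ± 0.06 (adjusted p = 0.068), the second passing without shTRIB3-1 replicate 2 (adjusted p = 0.0411).

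**Figure D3:**
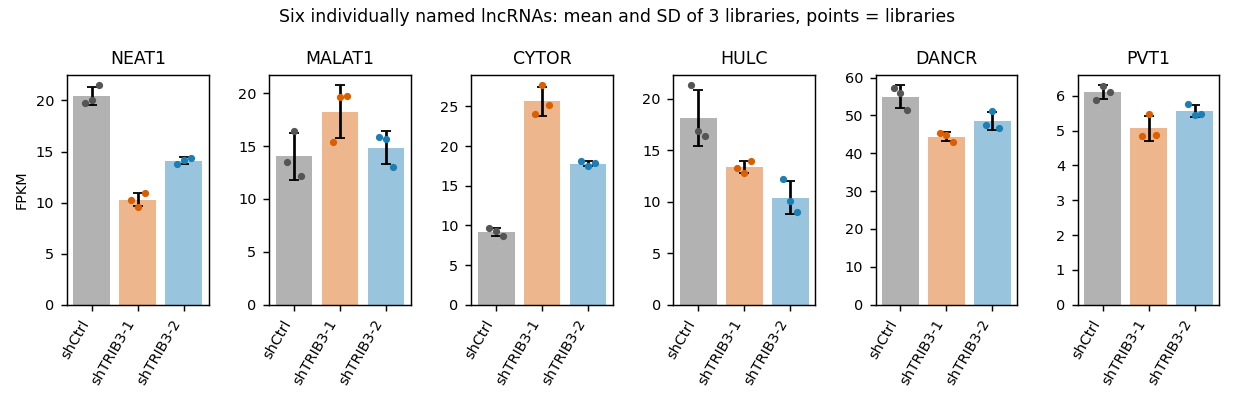
FPKM (y axis, from 0) of 6 individually named lncRNAs by group (x axis), with bars at the mean, error bars at 1 SD of 3 libraries and points for the libraries. CYTOR is higher and NEAT1 and HULC are lower in both knockdown groups, while the MALAT1 libraries of the 3 groups overlap.

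The largest rises came from LINC and -AS genes with little or no RNA in shCtrl. Those with no shCtrl library at 1 FPKM or above had passed the level only through the knockdown groups. The p-values of their rises are thus not independent of how the members were chosen. LINC00659 (chr20:62774121-62776856, minus strand) went from 0.277, 0.117 and 0.316 FPKM to 11.9, 12.4 and 12 with shTRIB3-1 and 2.28, 1.95 and 1.65 with shTRIB3-2, with 3 to 8 fragments per control library. The log2 fold changes were 5.23 ± 0.20 and 2.66 ± 0.20 (adjusted p = 3.3e-10 and 1.2e-07). It thus rose with both hairpins but far more with shTRIB3-1, and the direct difference was -2.58 ± 0.20 (adjusted p = 1.2e-06).

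LINC02533 and LINC01571 had no fragment in any shCtrl library. LINC02533 (chr6:4488798-4495771) stood at 1.80, 1.87 and 1.47 FPKM in shTRIB3-1 and 0.124, 0.166 and 0.0438 FPKM in shTRIB3-2. Against a floor of 3 fragments over the control group, it was at least 160-fold higher with shTRIB3-1 and at least 10.4-fold higher with shTRIB3-2. The fitted value with shTRIB3-2 fell under the fold threshold without replicate 1 (0.97) or 2 (0.84) of that group. LINC01571 (chr16:51762519-51772646) stood at 1.60, 1.67 and 1.18 FPKM and at 0.0669, 0.132 and 0.587 FPKM, at least 23.3-fold and at least 4.15-fold higher. The shTRIB3-2 value of LINC01571 rested partly on replicate 3, without which the fitted log2 value was 0.98 in place of 1.58. LINC02130 showed the same order of groups, with 0.108, 0.213 and 0.162 FPKM in shCtrl, 1.30, 1.63 and 1.72 in shTRIB3-1 and 0.790, 0.777 and 0.440 in shTRIB3-2. LINC02533, LINC01571 and LINC02130 reached 1 FPKM in shTRIB3-1 libraries only. They had thus passed the level only through the group in which they were high, and their calls cannot be read apart from that choice. These 3 genes and LINC00659 were the 4 members called lower in shTRIB3-2 than in shTRIB3-1, 1.24% of members beside 1.79% of all tested genes. LINC02130 left that list without shTRIB3-2 replicate 3 (log2 fold change -0.89).

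LINC01564 (chr6:53628380-53631394, plus strand) rose from a level that was already clear in shCtrl. It stood at 5.97, 5.16 and 4.98 FPKM in shCtrl, 24.7, 32.1 and 28.1 in shTRIB3-1 and 41.8, 49.5 and 44.6 in shTRIB3-2. The groups lay far apart, with log2 values against shCtrl of 2.37 ± 0.09 and 3.05 ± 0.09 (adjusted p = 4.5e-10 and 4.1e-11), and shTRIB3-2 was higher than shTRIB3-1 by 0.68 ± 0.09 (adjusted p = 0.00011). LINC02313 (chr14:31944853-31950294), chosen for mention after its values were seen, went from 11.3, 14.5 and 14.4 FPKM to 29.0, 36.7 and 32.5 and to 39.2, 36.7 and 35.9 (1.29 ± 0.10 and 1.48 ± 0.10). LINC01173 went from 1.18, 0.25 and 0.253 FPKM to 4.68, 8.55 and 5.56 and to 8.66, 7.38 and 10.3, with log2 fold changes of 3.51 ± 0.41 and 4.03 ± 0.41.

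Among the antisense-named genes, CDKN2B-AS1, also known as ANRIL, rose from 0.0465, 0.124 and 0.146 FPKM to 0.694, 0.603 and 0.703 and to 1.21, 1.05 and 1.03. Its log2 fold changes were 1.93 ± 0.21 and 2.57 ± 0.21 (adjusted p = 3.1e-06 and 2.0e-07). CDKN2B-AS1 reached 1 FPKM in shTRIB3-2 libraries only, so it had passed the level only through a group in which it was high. The neighbouring CDKN2B, an inhibitor of CDK4 and CDK6, moved with it, from 0.849, 0.899 and 0.645 FPKM to 5.10, 5.24 and 4.80 and to 4.42, 4.44 and 5.25 (2.53 and 2.43). DGUOK-AS1 rose by 2.61 and 2.87 with 0 to 8 fragments per control library, while DGUOK, which encodes a mitochondrial nucleoside kinase, rose by 0.31 and 0.44. MUC12-AS1 had 2 fragments in the 3 control libraries together and 51 and 36 in the knockdown groups, ratios of 26.6 (95% exact counting interval 7.01 to 226) and 18.7 (4.80 to 160), and 53.5% of its exon bases lie antisense to MUC12.

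Among LINC, MIR-HG and -AS members called lower with both hairpins, the largest mean falls were in HOXA-AS2, TMPO-AS1, LINC02413, IDH1-AS1, SEMA3B-AS1, LINC00574, EMC3-AS1 and USP3-AS1. HOXA-AS2, from the HOXA cluster (chr7:27121919-27128760, plus strand), was the most abundant of them, at 7.20, 6.70 and 7.22 FPKM in shCtrl, 2.43, 2.09 and 2.28 in shTRIB3-1 and 1.84, 2.41 and 1.93 in shTRIB3-2 (log2 fold changes -1.60 ± 0.10 and -1.73 ± 0.10, adjusted p = 2.0e-08 and 7.8e-09). LINC02413 went from 2.53, 2.89 and 3.28 FPKM to 0.782, 1.01 and 0.962 and to 0.967, 0.464 and 0.684 (-1.56 and -1.94). LINC00574 went from 1.78, 1.81 and 1.85 FPKM to 0.444, 0.728 and 0.762 and to 0.661, 0.650 and 0.622 (-1.39 and -1.36). The control and knockdown libraries of these 3 genes did not overlap, but the genes had been picked for the size of their change. LINC00574 reached 1 FPKM in shCtrl libraries only, so it had passed the level only through the group in which it was high.

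TMPO-AS1 went from 1.2, 1.18 and 1.17 FPKM to 0.213, 0.360 and 0.427 and to 0.129, 0.309 and 0.171 (log2 fold changes -1.60 ± 0.25 and -2.13 ± 0.25). It too had passed the level only through the shCtrl libraries. TMPO, which encodes the nuclear lamina protein thymopoietin, fell with it, from 22.3, 22.8 and 22.7 FPKM to 7.46, 8.25 and 8.37 and to 7.46, 6.97 and 7.47 (-1.48 and -1.62), and 19.2% of the exon bases of TMPO-AS1 lie antisense to TMPO. IDH1-AS1 fell by 1.71 and 1.13 and IDH1 by 0.15 and 0.24. EMC3-AS1 and USP3-AS1 went against their partners. EMC3-AS1 fell by 1.11 and 1.5 while EMC3 rose by 0.52 and 0.31, and USP3-AS1 fell by 1.27 and 1.30 while USP3 rose by 0.28 and 0.44. SEMA3B-AS1, with 3 to 27 fragments per library, had -1.34 ± 0.37 and -1.53 ± 0.37, and -0.83 with shTRIB3-1 once replicate 1 of that group was left out. IDH1-AS1, EMC3-AS1, USP3-AS1 and SEMA3B-AS1 also reached 1 FPKM in shCtrl libraries only. They had thus passed the level only through the group in which they were high, and their falls cannot be read apart from that choice.

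**Figure D4:**
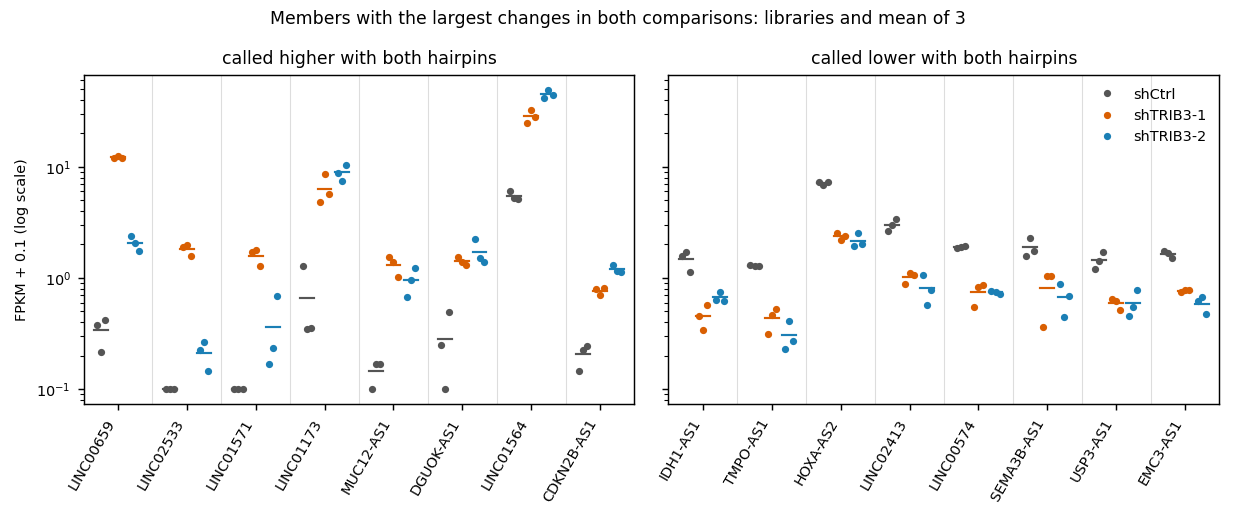
FPKM + 0.1 on a log axis (y) of the 8 LINC, MIR-HG or -AS members with the largest rise (left) and fall (right) among those called with both hairpins (x), per library with a bar at the group mean. LINC00659, LINC02533 and LINC01571 are highest in shTRIB3-1, and LINC01564 is highest in shTRIB3-2.

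Over the 139 antisense-named members whose name partner was also tested, the sign of the change was the same in 77 pairs (55.4%) with shTRIB3-1 and in 80 (57.6%) with shTRIB3-2. Of 19 antisense members called with shTRIB3-1, the partner was called in the same direction in 3, and of 18 called with shTRIB3-2 in 5, and in none in the opposite direction. The pairs called together were CDKN2B-AS1, TMPO-AS1 and CCDC183-AS1 with both hairpins, and EPHA2-AS1 and SPINT1-AS1 with shTRIB3-2. CDKN2B-AS1, TMPO-AS1 and CCDC183-AS1 had each passed the level only through a group in which they were high. Across all pairs Pearson's r was 0.30 with shTRIB3-1 and 0.32 with shTRIB3-2. Over the 19 pairs whose antisense member had no exon base antisense to another gene, r was -0.03 and 0.03 and the sign was the same in 6 (31.6%) and 7 (36.8%), and over the 37 pairs with an overlap of at least 20% r was 0.35 and 0.26. In shTRIB3-2 against shTRIB3-1 the picture differed. There r was 0.66 over the 19 pairs, with the same sign in 15 (78.9%), 0.40 over the 37 and 0.20 over all 139. These are descriptions over pairs that share libraries, and reads of overlapping genes may be mixed.

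**Figure D5:**
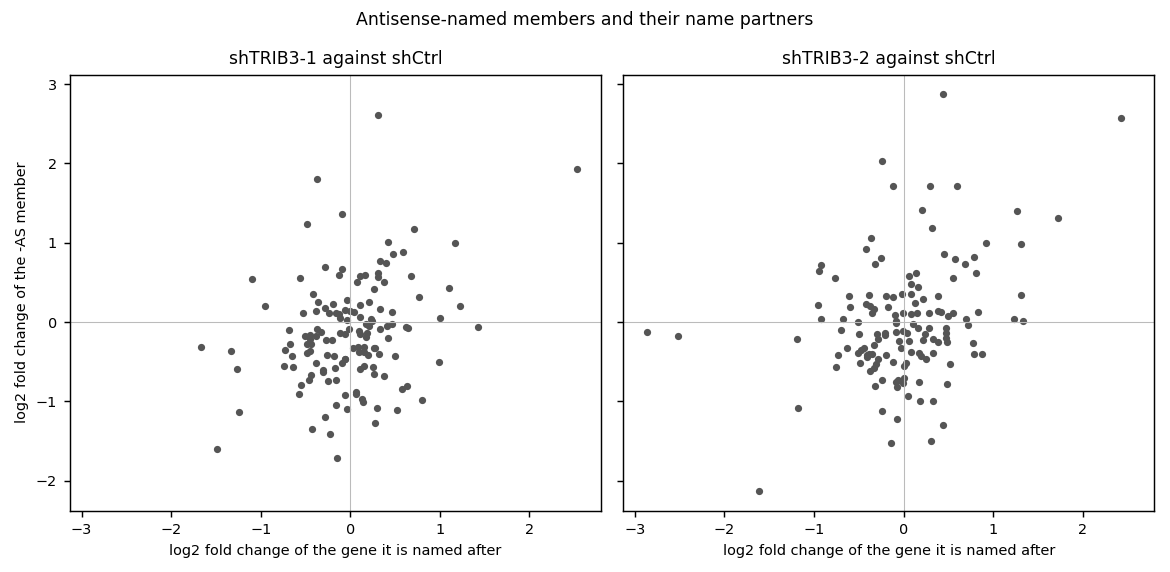
Log2 fold change of FPKM + 0.1 of each -AS member (y) against that of the gene in its name (x) for 139 pairs, with shTRIB3-1 on the left and shTRIB3-2 on the right. Most points lie near the centre in all 4 quadrants, with 55.4% and 57.6% of pairs on the same side of 0.

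Between the hairpins, 2 members were called higher and 4 lower in shTRIB3-2, 0.619% and 1.24% of members beside 0.284% and 1.79% of all tested genes. Of these 4, LINC02533, LINC01571 and LINC02130 had reached 1 FPKM in shTRIB3-1 libraries only. With quantile normalization 9 were called higher and 4 lower. By the adjusted p alone, 82 were higher and 28 lower, 25.4% and 8.67%, beside 25.1% and 20.7%. The 2 called higher were DBH-AS1 and TM4SF1-AS1. DBH-AS1 stood at 4.97, 4.16 and 4.55 FPKM in shCtrl, 1.94, 1.70 and 1.89 in shTRIB3-1 and 4.36, 3.72 and 4.33 in shTRIB3-2, so shTRIB3-1 alone was apart (difference 1.12 ± 0.09, adjusted p = 1.4e-06). TM4SF1-AS1, with 11 to 48 fragments per library, had a difference of 1.14 ± 0.28 (adjusted p = 0.0056), which was 0.94 without shTRIB3-1 replicate 1 and 0.99 without shTRIB3-2 replicate 2.

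The 9 microRNA hosts give rise to microRNAs, whose seed (bases 2 to 8) pairs with target messages. The mature sequences of 3 are shown because the levels of their hosts moved in different ways. The sequences are from RefSeq, with seeds in capitals, and the mature microRNAs themselves were not measured.
hsa-miR-22-3p, from MIR22HG: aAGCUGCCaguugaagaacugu
hsa-miR-122-5p, from MIR122HG: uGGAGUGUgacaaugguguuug
hsa-miR-34a-5p, from MIR34AHG: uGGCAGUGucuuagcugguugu
MIR22HG (chr17:1711504-1716210, minus strand) was the MIR-HG member called with both hairpins, higher from 6.68, 6.51 and 7.43 FPKM to 13.2, 15.4 and 14.4 and to 17.0, 17.7 and 18.6, with no overlap between groups. Its log2 fold changes were 1.05 ± 0.06 and 1.36 ± 0.06 (adjusted p = 2.1e-08 and 1.7e-09), and the first was 0.997 without shTRIB3-1 replicate 2. MIR122HG, host of the main microRNA of hepatocytes, went from 3.1, 3.18 and 3.38 FPKM to 2.41, 1.72 and 2.34 with shTRIB3-1 and 3.44, 3.35 and 3.22 with shTRIB3-2 (-0.57 ± 0.11 and 0.05 ± 0.11, difference adjusted p = 0.00068). MIR34AHG, whose microRNA is a p53 target, had -0.21 ± 0.05 and 0.13 ± 0.05. Over the 9 hosts, 2 rose and 4 fell with shTRIB3-1, beside 32.9% and 41.5% of all tested genes. With shTRIB3-2, 4 rose and 1 fell, beside 35.4% and 40.5%.

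Some members near hepatocyte transcription factors, chosen for mention after their values were seen, were lower with shTRIB3-1 than with shTRIB3-2. HNF4A-AS1 (chr20:44356744-44395706, minus strand) went from 9.58, 8.60 and 8.79 FPKM to 3.32, 3.01 and 3.69 and to 5.18, 4.98 and 5.05 (log2 fold changes -1.41 ± 0.07 and -0.81 ± 0.07, difference adjusted p = 4.6e-05), while HNF4A itself fell by 0.23 with shTRIB3-1 (adjusted p = 4.3e-05) and had -0.07 with shTRIB3-2 (adjusted p = 0.076). LINC00261, next to FOXA2, went from 28.7, 28.5 and 28.5 FPKM to 20.4, 19.6 and 20.8 with shTRIB3-1 and stood at 29.8, 27.0 and 28.2 with shTRIB3-2 (-0.49 and -0.01, difference adjusted p = 2.2e-06). Beside 32.9% and 41.5% of all tested genes, 2 of the 9 hepatocyte markers rose and 5 fell with shTRIB3-1. With shTRIB3-2, beside 35.4% and 40.5%, 5 of the markers rose and 2 fell. Their sum was 8381 to 9034 FPKM in shCtrl, 8601 to 9040 FPKM in shTRIB3-1 and 10815 to 11129 FPKM in shTRIB3-2. Its part in the changes of these members was not tested.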

How the data were processed

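The values analysed are FPKM computed and deposited by the authors, 1 line per gene symbol and 1 column for each of the 9 libraries, all of which were used. The study's methods name STAR as aligner, GRCh38 as genome, and the submitters' processing notes name HTSeq and R 3.2.0. The annotation release and the use of strand in counting are not given in the sources used here. The methods name a strand-specific kit and the labels another kit.

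The fragments behind each FPKM were recovered by solving for every gene's length and every library's depth. All values above 0 (100%) came within 0.02 of a whole number, and totals ran from 34206726 to 36311029 fragments. Counting intervals and the floor of 3 fragments cover counting error only. Replicates differed by more than sampling noise (chi-square per degree of freedom 3.13 to 7.54).

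Genes at FPKM of at least 1 in at least 3 libraries were tested with limma 3.58.1 (R 4.3.3, trend and empirical Bayes, two-sided) on log2(FPKM + 0.1), with 3 group means over 9 libraries. This scale understates changes of low genes. The script was tested on simulated data. Positions are from RefSeq (GRCh38.p14) and GENCODE 44. Alternatives were another pseudocount, filters, scalings, voom on recovered fragments, a replicate block and leaving out each library.

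The members and lists were chosen with earlier results of these data known. Genes named were MALAT1, NEAT1, GAS5, HULC, PVT1, CYTOR, DANCR, every SNHG member, the 8 LINC, MIR-HG or -AS members with the largest mean change called with both hairpins in each direction, up to 5 called between hairpins in each direction, the 5 with the highest mean FPKM in shCtrl, the sense genes of named antisense members, those next to the FPKM threshold, and some chosen after their values were seen. A member among these is not reported here.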

Additional observations from a re-analysis of the deposited data

Results flagged for a closer look

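Members were picked out where the hairpins gave significant changes in opposite directions, with the difference tested as shTRIB3-2 against shTRIB3-1 in the same limma fit (log2 fold change, adjusted p over all tested genes). There were 5 of 323 (1.55%), beside 198 of 11265 tested genes (1.76%), and none had an absolute log2 fold change above 1. LINC01639 stood at 5.26, 5.85 and 6.08 FPKM in shCtrl, 3.66, 4.02 and 4.50 in shTRIB3-1 and 7.96, 7.40 and 7.58 in shTRIB3-2, a difference of 0.90 (adjusted p = 2.8e-06). FOXD2-AS1 went from 2.88, 2.88 and 3.32 FPKM up to 3.67, 3.85 and 3.62 and down to 2.53, 2.43 and 2.03, a difference of -0.66 (adjusted p = 0.00011). ATXN1-AS1 had a difference of 0.49 (adjusted p = 5.4e-05), and its fall with shTRIB3-1 was lost without replicate 3 of shCtrl (adjusted p = 0.0556) or of shTRIB3-1 (0.0507). MIR34AHG had a difference of 0.34 (adjusted p = 0.0002), and its rise with shTRIB3-2 was lost without shCtrl replicate 1 or 3 or shTRIB3-2 replicate 1 (adjusted p 0.118, 0.0715 and 0.175). LINC01881 had a difference of -0.58 (adjusted p = 0.0012), another annotated gene on its strand covers all of its exons, and leaving out any of several single libraries took its adjusted p as high as 0.119 with shTRIB3-1 and 0.165 with shTRIB3-2.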

How the results depend on the processing

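Over 192 results of 64 named members and 3417 alternatives, 3160 kept their direction and their side of the threshold, 165 kept the direction and lost the threshold, 45 kept it and passed the threshold, and 47 changed sign. The counts called moved mainly with the pseudocount, the fold threshold and the filter, which also sets which genes are counted. With shTRIB3-1 the 58 called became 17 with a pseudocount of 1, 38 with a mean FPKM of at least 1, 109 with FPKM of at least 0.5 in 3 libraries and 216 with no fold threshold. With shTRIB3-2 the 52 became 19, 34, 84 and 212, between the hairpins the 6 became 2, 2, 16 and 110 (13 with quantile normalization), and with both hairpins the 37 became 9, 22, 64 and 169. In alternatives chosen after seeing the data, members with at least 50 fragments gave 34, 29, 3 and 22 in that order, and members at 1 FPKM or above in at least 1 library of every group gave 24, 18, 1 and 12. Leaving out each library gave 51 to 64, 52 to 61, 6 to 8 and 33 to 45.

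Signs changed mostly for values near 0. With median centring these were LINC00261 (0.038), SNHG11 (0.043) with shTRIB3-2, SNHG9 (0.020) with shTRIB3-1, and between the hairpins LINC00574 (-0.00015), LINC00958 (-0.028), RAB4A-AS1 (-0.014) and SNHG3 (-0.0099). With quantile normalization they were LINC02533 (-0.018) and SNHG11 (0.049) with shTRIB3-2, and between the hairpins LINC00958 (-0.027), LINC01061 (0.076), SEMA3B-AS1 (0.072), SNHG3 (-0.0071), TMPO-AS1 (0.025) and USP3-AS1 (0.44). With TPM it was SNHG6 with shTRIB3-1 (-0.054). The causes were not tested. Leaving out each library changed signs within these ranges. With shTRIB3-1 they were -0.035 to 0.030 for SNHG6 and -0.61 to 0.47 for SNHG9. With shTRIB3-2 they were -0.050 to 0.022 for LINC00261, -0.0092 to 0.21 for MALAT1 and -0.10 to 0.068 for SNHG11. Between the hairpins they were -0.0073 to 0.77 for DICER1-AS1, -0.18 to 0.15 for LINC00574, -0.054 to 0.032 for LINC00958, -0.14 to 0.12 for LINC01061, -0.090 to 0.095 for RAB4A-AS1, -0.70 to 0.091 for SEMA3B-AS1, -0.10 to 0.010 for SNHG14, -0.13 to 0.0064 for SNHG17, -0.18 to 0.0094 for SNHG19, -0.22 to 0.057 for SNHG25, -0.0077 to 0.035 for SNHG3, -0.34 to 0.039 for SNHG4 and -0.24 to 0.14 for USP3-AS1.

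With the replicate block the counts were 58, 52, 6 and 37, as without it. Libraries with the same number deviated from their group means with correlations of -0.07 to 0.09 over 9 pairs, so the numbers were not taken to pair the libraries. Depth limits the 57 members with under 50 fragments a library on average.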

Other observations

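A list of 28 lncRNAs whose names lie outside the naming rule was checked beside the members, and 22 of them were in the table and 12 were tested. With shTRIB3-1, 2 rose and 6 fell, beside 32.9% and 41.5% of all tested genes, and with shTRIB3-2, 2 rose and 4 fell, beside 35.4% and 40.5%. CCAT1, a lncRNA upstream of MYC, went from 24.9, 24.9 and 22.9 FPKM in shCtrl to 40.1, 41.8 and 37.3 in shTRIB3-1 and 51.5, 53.4 and 52.7 in shTRIB3-2 (log2 fold changes 0.71 and 1.12). UCA1, first described in urothelial cancer, went from 0.350, 0.357 and 0.350 FPKM to 1.81, 2.38 and 1.60 and to 1.82, 1.92 and 1.66 (2.15 and 2.07). DLEU2, host of miR-15a and miR-16-1, fell from 1.92, 2.19 and 1.87 FPKM to 0.903, 0.902 and 0.931 and to 0.714, 0.532 and 0.855 (-1.05 and -1.40). NORAD, which binds PUMILIO proteins, fell from 124, 135 and 135 FPKM to 97.7, 99.6 and 101 and to 105, 102 and 104 (-0.40 and -0.34). ZFAS1, also a snoRNA host, stood at 82.5, 88.8 and 88.7 FPKM in shCtrl and did not pass with either hairpin (0.03, adjusted p = 0.63, and 0.00, adjusted p = 0.97).

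Of 10 microRNA processing factors, 3 rose and 3 fell with each hairpin, and none was called. Of all tested genes, 32.9% rose and 41.5% fell with shTRIB3-1, and 35.4% and 40.5% with shTRIB3-2. Those called higher and lower were 5.39% and 6.1% with shTRIB3-1, and 6.06% and 6.27% with shTRIB3-2.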
